A study of Mus musculus with 6 samples.

Results

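The genes described here encode the enzymes that make cholesterol and fatty acids, together with the proteins that control their transcription and 1 sterol carrier. They are the 36 mouse genes of a list drawn up by function, found in the count table by gene identifier, and they make up 36 of its 54281 rows. The list does not hold every enzyme of either pathway. Levels were read in 6 sequencing libraries of GLUTag cells, a mouse enteroendocrine line that makes the proglucagon-derived hormone GLP-1. The cells were seeded at 1000000 per well on Matrigel and kept for 48 h in DMEM with 1 g/L glucose and 10% serum, with no drug or genetic change named in the labels, and polyadenylated RNA was sequenced from its 3′ end. Plate 1 (passage 23) gave 3 of the libraries and plate 2 (passage 27) the other 3, so that plate and passage cannot be told apart. The labels do not say that the libraries of a plate came from separately kept cultures, and p-values therefore measure only the spread between these libraries. All of them stand for 1 cell line in 1 condition, with no untreated or treated arm to compare.

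Cells build cholesterol from acetyl-CoA. The mevalonate pathway turns acetyl-CoA into isoprenoid units, these are joined to squalene, squalene is closed to lanosterol, and a chain of demethylations, reductions and isomerisations leads to cholesterol. The same cytosolic acetyl-CoA is carboxylated to malonyl-CoA and built into palmitate, which desaturases and elongases convert to the other fatty acids of membranes. Transcription of both branches is driven by the SREBP factors, encoded by Srebf1 and Srebf2. They are made as membrane proteins of the endoplasmic reticulum, where SCAP escorts them to the Golgi for cleavage when sterols are low and the INSIG proteins hold the complex back when sterols are high. The cleaved factors bind sterol regulatory elements, usually beside sites for NF-Y (the CCAAT box) and Sp1 (the GC box).

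The libraries held 23994226, 22632351 and 21399987 assigned reads for replicates 1, 2 and 3 of plate 1, and 28083507, 30914501 and 36488198 for plate 2. The columns of plate 2 could not be tied to single replicate labels, so these libraries are named by their total as the lowest-, middle- and highest-total library, and values are given in that order throughout. Levels are given as CPM, a gene's share of the library total scaled to 1000000 reads, on which 3 reads correspond to 0.0822 to 0.140 CPM. Each read comes from the 3′ end of a transcript, so CPM values of different genes stand for transcript numbers without a length term. The middle-total library of plate 2 stood apart from the others, with transcripts of low GC content at their 3′ end reading low, and the plate comparison below is given with and without it. Markers of the labelled cell type were present, with 8 of 8 enteroendocrine genes above 3 reads in every library and a summed level of 5195 to 7117 CPM, led by Gcg at 3416 ± 771 CPM. Of cell types known for lipid synthesis or handling, adipocyte markers summed to 0.840 to 2.53 CPM and enterocyte markers to 0.208 to 1.39 CPM, with Lep and Fabp2 at 0 in every library. Hepatocyte markers summed to 51.0 to 88.3 CPM, nearly all of it Ttr, with Alb at 0 in every library. Fibroblast markers summed to 4.71 to 7.06 CPM. Because whole wells were lysed, fewer cells with a transcript and less of it per cell cannot be told apart.

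Promoter sequence was examined first, because the genes share regulators. RefSeq windows of 300 bases (250 before and 50 after a transcription start, GRCm38.p6) were at hand for 29 of the 36 genes, in 38 windows, and not for Fdps, Fdft1, Sqle, Stard4, Scd1, Scd2 and Fads1. Each window was searched on both strands. The core of a sterol regulatory element was taken as CACNCCAC (GTGGNGTG on the reverse strand). The E-box was CACGTG, which reads alike on both strands. The CCAAT box was taken by its name's letters (ATTGG in reverse). The GC box was GGGCGG on either strand. No motif contains another. The CCAAT box was present in 24 of 29 genes (82.8%), against 41.1% of all 27025 genes with a window and 43.6% of those that were expressed well enough to be tested here. Within the 100 bases before the start it was present in 20 of 29 genes (69.0%), against 22.03% of all genes and 26.97% of tested genes, and 31 of the 48 CCAAT matches of the members lay there. The GC box was found in 23 of 29 genes (79.3%), against 38.2% of all genes but 68.1% of tested genes. An E-box was found in 6 of 29 genes (20.7%), namely Hsd17b7, Sc5d, Dhcr7, Scap, Insig1 and Elovl5, against 8.09% of all genes and 11.5% of tested genes. The sterol element core was found in 3 of 29 (10.3%), Acat2, Hmgcs1 and Insig1, against 7.12% and 7.42%. A match describes letters in a window and is no evidence of binding, and a missing match says only that these exact letters are not in the window.

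Upstream sequences of 5 genes are printed because they show these letters in place beside genes to which the results return. They run from 250 bases before the RefSeq start to the base before it, or to the base before the first GENCODE transcript of the gene where that begins earlier, 5′ to 3′ on the strand of the gene, with matches to any of the 4 motifs in capitals. Hmgcs1 carries 1 sterol element core between CCAAT and GC boxes. Insig1 carries an E-box with 3 GC boxes and 1 CCAAT box, and its sterol element core lies 9 bases before the RefSeq start, beyond the printed run. Srebf2 is shown for its own CCAAT box, Hsd17b7 for an E-box between GC and CCAAT boxes, and Fasn for 3 CCAAT matches, of which the last 2 share bases on opposite strands.
Hmgcs1, chr13:119690101-119690350 (+ strand): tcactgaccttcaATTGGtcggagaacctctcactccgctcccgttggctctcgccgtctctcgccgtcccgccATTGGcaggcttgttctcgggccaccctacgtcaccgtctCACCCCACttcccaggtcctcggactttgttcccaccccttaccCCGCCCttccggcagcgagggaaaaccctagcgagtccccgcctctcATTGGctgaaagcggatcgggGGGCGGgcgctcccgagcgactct
Insig1, chr5:28071162-28071362 (+ strand): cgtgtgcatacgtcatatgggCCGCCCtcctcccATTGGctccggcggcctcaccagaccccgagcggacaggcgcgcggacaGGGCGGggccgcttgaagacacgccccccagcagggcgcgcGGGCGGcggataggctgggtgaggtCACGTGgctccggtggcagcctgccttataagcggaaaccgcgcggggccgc
Srebf2, chr15:82147019-82147180 (+ strand): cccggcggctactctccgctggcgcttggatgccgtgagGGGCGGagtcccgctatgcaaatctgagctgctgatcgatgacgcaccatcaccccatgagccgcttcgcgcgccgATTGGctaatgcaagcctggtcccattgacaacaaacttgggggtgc
Hsd17b7, chr1:169969242-169969455 (- strand): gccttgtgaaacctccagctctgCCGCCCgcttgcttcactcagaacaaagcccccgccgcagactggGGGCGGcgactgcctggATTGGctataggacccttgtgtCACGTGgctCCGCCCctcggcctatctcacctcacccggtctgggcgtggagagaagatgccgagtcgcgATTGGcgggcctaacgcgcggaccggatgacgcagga
Fasn, chr11:120824548-120824797 (- strand): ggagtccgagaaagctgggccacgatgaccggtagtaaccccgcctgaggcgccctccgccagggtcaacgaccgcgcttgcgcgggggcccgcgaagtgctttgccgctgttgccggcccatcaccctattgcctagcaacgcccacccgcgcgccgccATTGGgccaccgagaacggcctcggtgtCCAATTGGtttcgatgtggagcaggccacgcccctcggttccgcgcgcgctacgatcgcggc

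**Figure D1:**
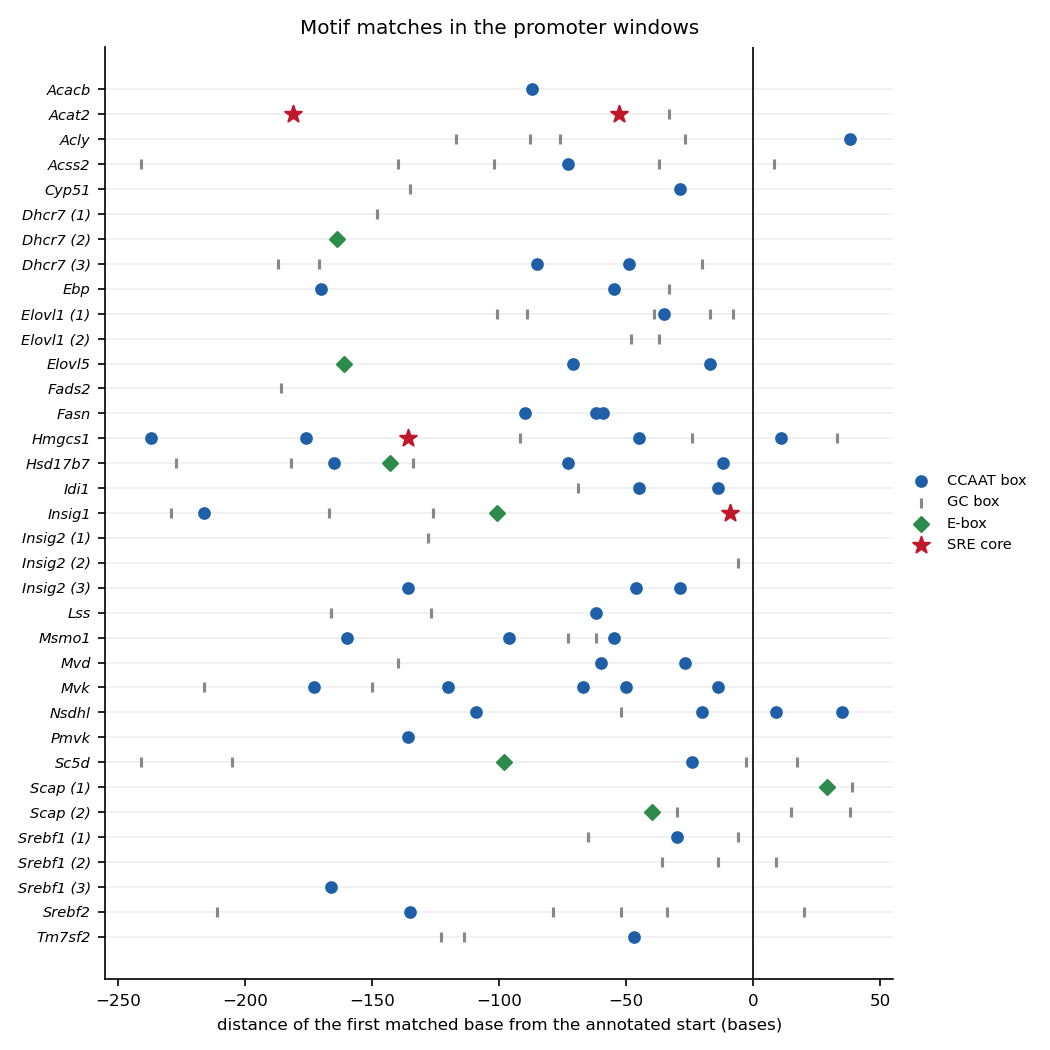
Positions of motif matches in the promoter windows of the members, 1 row per window with at least 1 match, with the distance of the first base of a match from the RefSeq start (bases) on the x axis. CCAAT boxes gather in the 100 bases before the start, where 31 of 48 lie, while sterol element cores appear in 3 genes.

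All 36 genes were detected above 3 reads in all 6 libraries, the smallest count being 22. Their median level was 61.9 CPM, against 13.1 CPM over the 15669 genes tested. Together they summed to 2869 ± 448 CPM (SD, n = 6), a mean of 2473 CPM on plate 1 and 3265 CPM on plate 2. Other values differed between plates on the same scale. Enteroendocrine markers summed to 5195 to 6069 CPM on plate 1 and 6188 to 7117 CPM on plate 2, hepatocyte markers to 51.0 to 62.0 and 63.0 to 88.3 CPM, and the mitochondrial share of reads was 3.98 to 4.85% and 4.62 to 7.27%. Their part in the difference was not tested. Desaturases and elongases took 25.96% of that sum, squalene and sterol enzymes 24.4%, mevalonate and isoprenoid enzymes 22.2%, the regulators with the sterol carrier 15.4% and the acetyl-CoA and fatty acid synthesis enzymes 12.0%. Scd2 was the highest member, Hmgcs1 the second and Acacb the lowest in each of the 6 libraries. The median coefficient of variation over the libraries, on CPM scaled by the trimmed mean of M-values (TMM), was 17.2%, against 19.4% over all genes tested and 16.4% over tested genes within the members' range of mean CPM. Without the middle-total library these were 12.7%, 16.1% and 13.4%, so that the members' place against genes of like level turned.

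**Figure D2:**
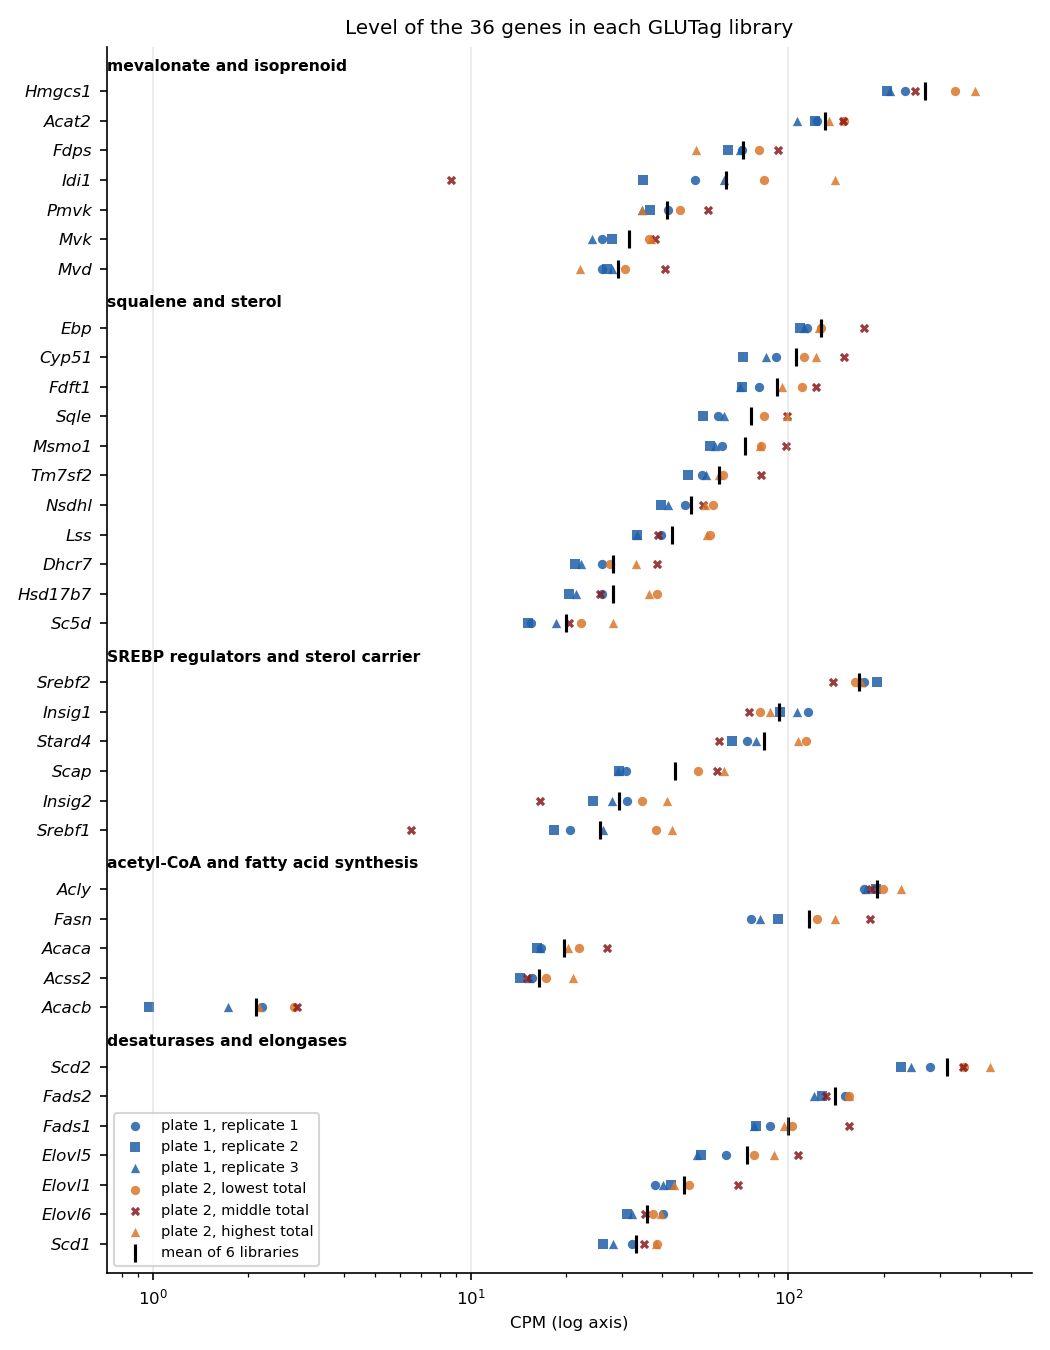
Level of each of the 36 genes in each library (CPM, log axis), grouped by role and ordered by mean, with points for single libraries and a bar for the mean of 6. Mean levels run from that of Acacb at 2.12 CPM to that of Scd2 at 315 CPM, and the middle-total library of plate 2 is far below the others at Idi1 and Srebf1.

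By mean level, and with the level of Fdps taken as counted, the mevalonate pathway was led by its first steps. Its 7 genes summed to 637 ± 121 CPM (SD, n = 6). Hmgcs1 (ENSMUSG00000093930, chr13:119690379-119708260), which encodes the cytosolic synthase of HMG-CoA, stood at 232, 204 and 208 CPM on plate 1 and 333, 249.6 and 387 CPM on plate 2. It averaged 269 ± 74.3 CPM, above 96.3% of tested genes, and every plate 2 value lay above every plate 1 value on this scale, though not after TMM scaling. On CPM of the library total the same was true of 20 of 36 members (55.6%) and of 35.2% of all genes tested. Acat2 (ENSMUSG00000023832, chr17:12942890-12960747), the cytosolic thiolase that supplies acetoacetyl-CoA, followed at 123, 121 and 106 CPM on plate 1 and 149.9, 149 and 134 CPM on plate 2. In the highest-total library Idi1 lay above Acat2, at 140.2 CPM. The kinases and the decarboxylase that turn mevalonate into isopentenyl diphosphate were much lower, with means of 31.6 CPM for Mvk, 41.5 CPM for Pmvk and 29.0 CPM for Mvd, and their 3 ranges overlapped. Mvd (ENSMUSG00000006517, chr8:122433601-122443422), the lowest, stood at 25.9, 26.8 and 27.9 CPM on plate 1 and 30.6, 40.8 and 22.1 CPM on plate 2.

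Idi1 (ENSMUSG00000058258, chr13:8885501-8892451), the isomerase that balances the isoprenoid building blocks, varied most of all members. Its level was 50.9, 34.9 and 62.6 CPM on plate 1 and 83.5, 8.67 and 140.2 CPM on plate 2, a wide range on plate 2 alone. The low value lay in the middle-total library and the high one in the highest-total library, on either side of plate 1. Fdps, which joins the blocks to farnesyl diphosphate, averaged 71.7 ± 14.2 CPM, but its reads cannot be fully told from those of an overlapping gene and of near copies. The last 300 bases of its transcript hold a stretch of 199 bases that is identical in Gm43738. That gene is annotated on the same strand, overlaps the last 500 bases of Fdps itself and averaged 101 CPM, more than Fdps. Whether reads of Fdps were counted to Gm43738 was not tested, so the level of Fdps and its place in the group are uncertain. Stretches of 123 to 247 bases at 91.4 to 99.2% identity lay in 6 further genes, each at or below 0.377 CPM.

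Squalene and sterol enzymes formed the largest group, with 11 genes that summed to 701 ± 142 CPM. Ebp (ENSMUSG00000031168, chrX:8185329-8193512), the sterol isomerase that also binds the drug emopamil, was the highest at 114, 109 and 112 CPM on plate 1 and 126, 173 and 124 CPM on plate 2, with its top value in the middle-total library. Cyp51, the lanosterol demethylase, averaged 105 ± 28.2 CPM, and Fdft1, the squalene synthase that commits farnesyl diphosphate to sterols, 91.7 ± 21.2 CPM. Sqle and Msmo1, the oxygenases of squalene and of methylsterols, averaged 76.4 ± 20.2 CPM and 73.1 ± 16.6 CPM. Sqle stood at 60.2, 53.6 and 62.6 CPM on plate 1 and 83.9, 98.9 and 98.9 CPM on plate 2. On this scale 9 of the 11 genes, all but Lss and Hsd17b7, were higher in all 3 plate 2 libraries than in all 3 of plate 1, against 35.2% of all genes tested. After TMM scaling 3 were (Sqle, Cyp51 and Msmo1), against 12.8%.

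Lower down came the sterol reductase Tm7sf2 at 60.2 ± 11.8 CPM, the dehydrogenase Nsdhl at 49.2 ± 7.43 CPM and the lanosterol synthase Lss at 42.9 ± 10.5 CPM. The lowest 3 were Dhcr7, Hsd17b7 and Sc5d. Dhcr7, which makes cholesterol from dehydrocholesterol, averaged 28.1 ± 6.62 CPM and the ketoreductase Hsd17b7 28.0 ± 7.62 CPM. Their order was not the same in all libraries, with Dhcr7 higher in 3 of 6. Sc5d (ENSMUSG00000032018, chr9:42251595-42264256), the sterol desaturase, was the lowest at 15.5, 15.2 and 18.6 CPM on plate 1 and 22.2, 20.4 and 28.0 CPM on plate 2. The last 500 bases of Fdft1 and Cyp51 overlap genes annotated on the opposite strand, Ctsb at 82.4 CPM and Akap9 at 54.4 CPM. Those that overlap the ends of Mvd (Gm20388) and Lss (4930483K19Rik) had no reads. The strand setting of the counting was not given in the sources used here.

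Among the regulators, Srebf2 was the most abundant transcript in every library and Srebf1 had the lowest mean, although Insig2 was lower in the lowest- and highest-total libraries of plate 2. The 6 genes of this group summed to 442 ± 53.0 CPM. Srebf2 (ENSMUSG00000022463, chr15:82147181-82205379), the SREBP best known for driving cholesterol genes, stood at 173, 190.5 and 169.18 CPM on plate 1 and 161, 138 and 169.02 CPM on plate 2, so that the plates touched but did not overlap. Srebf1 (ENSMUSG00000020538, chr11:60199089-60222581), the SREBP best known for fatty acid genes, stood at 20.5, 18.2 and 26.1 CPM on plate 1 and 38.3, 6.47 and 43.1 CPM on plate 2. Outside the middle-total library its lowest value was 18.2 CPM. Rai1, which overlaps the last 500 bases of Srebf1 on the opposite strand, did not show that dip. It read 39.9 CPM in the middle-total library against 46.7 and 55.3 CPM in the other plate 2 libraries.

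Scap (ENSMUSG00000032485, chr9:110333288-110384950), the sterol-sensing escort, stood at 30.7, 29.2 and 29.1 CPM on plate 1 and 51.8, 59.5 and 62.5 CPM on plate 2. All 3 plate 2 values exceeded all 3 plate 1 values. Insig1 (ENSMUSG00000045294, chr5:28071363-28078662), the retention protein that is itself an SREBP target, ran the other way at 115, 93.8 and 106 CPM on plate 1 and 81.5, 75.1 and 87.4 CPM on plate 2, again without overlap. Insig2 (ENSMUSG00000003721, chr1:121304353-121332589), its relative, stood at 31.0, 24.3 and 27.8 CPM on plate 1 and 34.7, 16.6 and 41.5 CPM on plate 2, lowest in the middle-total library. Stard4, the soluble carrier that moves cholesterol between membranes, averaged 83.4 ± 21.9 CPM.

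The enzymes that supply acetyl-CoA and build palmitate summed to 344 ± 56.6 CPM. Acly (ENSMUSG00000020917, chr11:100476353-100528000), which splits exported citrate into cytosolic acetyl-CoA, stood at 173, 188 and 175 CPM on plate 1 and 199, 181 and 225 CPM on plate 2. Acss2 (ENSMUSG00000027605, chr2:155517948-155585724), which makes acetyl-CoA from acetate, stood at 15.6, 14.3 and 15.2 CPM on plate 1 and 17.3, 15.0 and 21.02 CPM on plate 2. The fatty acid synthase Fasn (ENSMUSG00000025153, chr11:120805846-120824547) was at 76.3, 92.8 and 81.3 CPM on plate 1 and 123, 181 and 139.7 CPM on plate 2, and every plate 2 value lay above every plate 1 value. Acaca (ENSMUSG00000020532, chr11:84129672-84401651), the carboxylase that makes malonyl-CoA for synthesis, was at 16.6, 16.2 and 16.5 CPM on plate 1 and 21.97, 26.8 and 20.3 CPM on plate 2. Acacb (ENSMUSG00000042010, chr5:114146535-114250761), the form at the mitochondrial surface that restrains fatty acid oxidation, was at 2.21, 0.972 and 1.73 CPM on plate 1 and 2.78, 2.85 and 2.17 CPM on plate 2, with at least 22 reads in each library. The last 500 bases of Acss2 overlap Gss on the opposite strand, which averaged 6.79 CPM.

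Desaturases and elongases gave the largest mean summed level, 745 ± 141 CPM, though in the middle-total library the squalene and sterol genes summed higher, 900.3 against 888 CPM. Scd2 (ENSMUSG00000025203, chr19:44293674-44306864), a stearoyl-CoA desaturase that introduces the double bond of oleate, stood at 278, 226 and 243 CPM on plate 1 and 358, 355 and 430.3 CPM on plate 2. Scd1 (ENSMUSG00000037071, chr19:44394455-44407879), the form that dominates in liver and fat, stood at 32.3, 26.1 and 28.1 CPM on plate 1 and 38.5, 35.1 and 38.4 CPM on plate 2. Of the desaturases of polyunsaturated fatty acids, Fads2 (ENSMUSG00000024665, chr19:10062765-10101746) stood at 150.4, 128 and 120.5 CPM on plate 1 and 155, 131 and 155 CPM on plate 2. Its neighbour Fads1 (ENSMUSG00000010663, chr19:10182888-10196877) stood at 87.2, 79.0 and 77.6 CPM on plate 1 and 102, 155 and 96.5 CPM on plate 2. In the middle-total library Fads1 was above Fads2, and in each of the other 5 below it.

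Elovl5 (ENSMUSG00000032349, chr9:77917364-77984519), the elongase of polyunsaturated chains, stood at 63.7, 53.1 and 51.6 CPM on plate 1 and 77.9, 107 and 90.1 CPM on plate 2. Elovl1 (ENSMUSG00000006390, chr4:118428093-118432953), which extends saturated chains to very long ones, stood at 38.0, 42.7 and 40.3 CPM on plate 1 and 48.5, 69.2 and 43.5 CPM on plate 2. Elovl6 (ENSMUSG00000041220, chr3:129532355-129638495), which turns palmitate into stearate, stood at 40.2, 30.9 and 32.2 CPM on plate 1 and 37.5, 35.3 and 39.8 CPM on plate 2. Elovl1 and Elovl5 peaked in the middle-total library. The ranges of Elovl1 and Elovl6 met, while Elovl5 was the highest of the 3 in every library. The last 500 bases of Elovl1 overlap Cdc20 on the opposite strand, which averaged 135 CPM.

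Members that share a reaction or a role were then compared within each library, to ask which isoform or source the cells carry most transcript of. Differences are log2 ratios of CPM + 1, tested over the 6 libraries by an exact permutation test that flips signs (two-sided, with 0.03125 as the smallest p it can give), and adjusted by Benjamini and Hochberg over 9 pairs. Scd2 exceeded Scd1 in 6 of 6 libraries by 3.19 ± 0.16 (mean ± SD), a 9.53-fold ratio of means. The ratio was 3.07, 3.07 and 3.07 on plate 1 and 3.18, 3.30 and 3.45 on plate 2, even within plate 1 and higher in each plate 2 library. Acly exceeded Acss2 by 3.46 ± 0.10 and Acaca exceeded Acacb by 2.74 ± 0.23, each in 6 of 6 libraries. For these 3 pairs the exact p was 0.03125 and the adjusted p 0.0402. Acacb averaged only 2.12 CPM, so the size of its difference from Acaca depended on the 1 CPM added. It was 3.21 with 0.1 CPM added and 1.79 with 5 CPM added, and the ratio of means was 9.31-fold.

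Among the regulators, Srebf2 exceeded Srebf1 in 6 of 6 libraries by 2.87 ± 0.85, and Insig1 exceeded Insig2 in 6 of 6 by 1.67 ± 0.43 (exact p = 0.03125, adjusted p = 0.0402 for both). The size of these differences rested partly on the middle-total library. The log2 ratio of Srebf2 to Srebf1 was 3.01, 3.31 and 2.65 on plate 1 and 2.05, 4.22 and 1.95 on plate 2, with a mean of 2.59 without that library. For Insig1 against Insig2 it was 1.86, 1.90 and 1.90 on plate 1 and 1.21, 2.12 and 1.05 on plate 2, with a mean of 1.59 without it. Apart from that library, the ratio of Insig1 to Insig2 was lower on plate 2 than on plate 1.

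Elovl5 exceeded Elovl6 by 0.97 ± 0.36 and Elovl1 fell below Elovl5 by 0.62 ± 0.27 on the log2 scale, each in 6 of 6 libraries (exact p = 0.03125, adjusted p = 0.0402). In 2 pairs the order was not the same in all libraries. Elovl1 against Elovl6 gave 0.36 ± 0.35, with Elovl1 higher in 5 of 6, and Fads1 against Fads2 gave -0.52 ± 0.38, with Fads1 higher in 1 of 6 (exact p = 0.0625, adjusted p = 0.0625 for both). The 1 library was the middle-total one, without which the difference was -0.67 ± 0.069. With 5 libraries the same test cannot go below 0.0625.

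**Figure D3:**
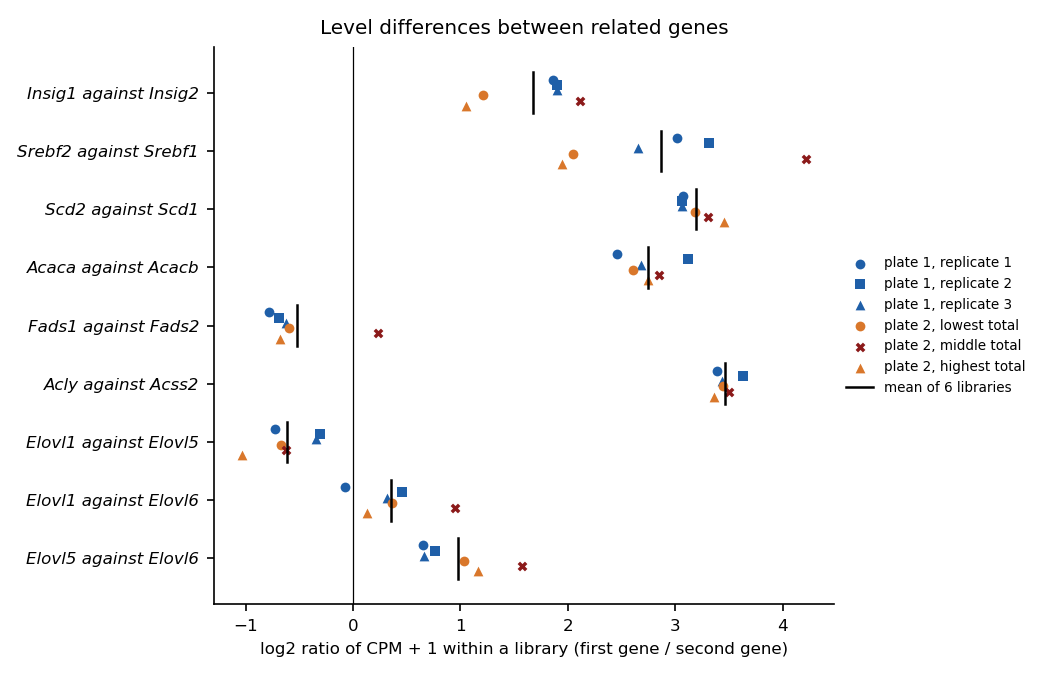
Log2 ratio of CPM + 1 between the members of 9 pairs within each library, with points for the 6 libraries and a bar for their mean. In 7 pairs all points lie on 1 side of 0, while for Fads1 against Fads2 and Elovl1 against Elovl6 a single library lies on the other side.

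The only contrast the labels offer is plate 2 (passage 27) against plate 1 (passage 23). In edgeR's quasi-likelihood test over all 15669 genes, with Benjamini-Hochberg adjustment and a threshold of 0.05, none of the 36 genes passed, where 0.185% of all tested genes did (29 genes). At an unadjusted p under 0.05 there were 9 members (25.0%), against a background of 16.1%. DESeq2 called 3 members (Srebf2, Scap and Insig1) at a background of 3.73%, and limma-voom none. At an unadjusted p under 0.05 limma-voom had 9 members (25.0%), against 16.6% of tested genes. Read library by library on TMM-scaled CPM, 9 members lay higher in all 3 plate 2 libraries than in all 3 of plate 1 (Mvk, Sqle, Cyp51, Msmo1, Scap, Acaca, Fasn, Scd2 and Elovl5), which is 25.0% of members against 12.8% of tested genes. Only Srebf2 and Insig1 lay lower in all 3, which is 5.56% of members against 12.0%.

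By size, the largest changes were those of Scap and Insig1 in the sterol-sensing machinery. The log2 change of Scap, plate 2 against plate 1, was 0.70 (SE 0.13, adjusted p = 0.0744). That of Insig1 was -0.64 (SE 0.12, adjusted p = 0.0763), and that of Srebf2 -0.46 (SE 0.12, adjusted p = 0.135). The escort of SREBP lay higher and the retention protein lower on plate 2 in every library, but the adjusted p stayed above 0.05. For the enzymes the largest shift was that of Fasn at 0.56 (SE 0.17, adjusted p = 0.17), followed by Elovl5 at 0.44 (SE 0.16, adjusted p = 0.213) and Sqle at 0.41 (SE 0.12, adjusted p = 0.165). This order rested on the middle-total library, without which Fasn stood at 0.34 (adjusted p = 0.0624), Elovl5 at 0.27 (adjusted p = 0.143) and Sqle at 0.33 (adjusted p = 0.0595). In that fit Idi1 at 0.88 (adjusted p = 0.225), Hmgcs1, Hsd17b7, Scd2 and Lss all lay above Fasn. Scd2 gave 0.35 (SE 0.13, adjusted p = 0.226). The estimates for Idi1, 0.38 (SE 0.95, adjusted p = 0.897), and Srebf1, 0.17 (SE 0.67, adjusted p = 0.939), had intervals of -2.10 to 2.86 and -1.51 to 1.84, so that changes of several fold either way could not be told from none.

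Across the members the log2 change had a median of 0.19, with 27 of 36 positive, where all genes tested had a median of 0.031 and 54.1% positive. Without the middle-total library the members' median was 0.13 with 23 of 36 positive, and that of all genes tested 0.01 with 51.0% positive. The 11 squalene and sterol genes were all positive in edgeR with TMM, from 0.075 to 0.41 with a median of 0.25. Their signs, though not these values, were the same in DESeq2, in limma-voom and with total-count scaling. Under total-count scaling 80.5% of all genes tested and 34 of 36 members were positive. Tm7sf2 and Ebp turned negative without the middle-total library. None of the 11 passed in edgeR with TMM over all 6 libraries, in DESeq2 or in limma-voom. With total-count scaling Fdft1, Sqle, Cyp51 and Msmo1 passed, and without the middle-total library Hsd17b7 did. The other groups were mixed, with 5 of 7 mevalonate genes, 3 of 6 regulators, 3 of 5 acetyl-CoA and fatty acid synthesis genes and 5 of 7 desaturases and elongases positive. Without the middle-total library these counts were 3 of 7, 4 of 6, 4 of 5 and 3 of 7. Scaling by the total count alone raised the median of all genes to 0.30 and that of members to 0.46, and called 9 members, all higher on plate 2, at a background of 9.46%. Srebf2 and Insig1 stayed negative under that scaling, at -0.18 and -0.37 (edgeR, adjusted p = 0.299 and 0.0784).

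Without the middle-total library of plate 2, edgeR called 7 members, at a background of 12.0% of tested genes. Scap and Insig1 stood at 0.64 (adjusted p = 0.00269) and -0.62 (adjusted p = 0.00171), and Srebf2 at -0.41 (adjusted p = 0.0141). Srebf1 stood at 0.61 (adjusted p = 0.00993), Hmgcs1 at 0.44 (adjusted p = 0.00934), Hsd17b7 at 0.42 (adjusted p = 0.0386) and Scd2 at 0.36 (adjusted p = 0.0394). In that fit Scap, both SREBP genes and Insig1 of the regulators changed, with Insig1 and Srebf2 falling and the others rising. The 7 called members are 19.4% of the list. With no filter on low counts edgeR called Scap, Insig1 and Fasn, at a background of 2.02%.

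**Figure D4:**
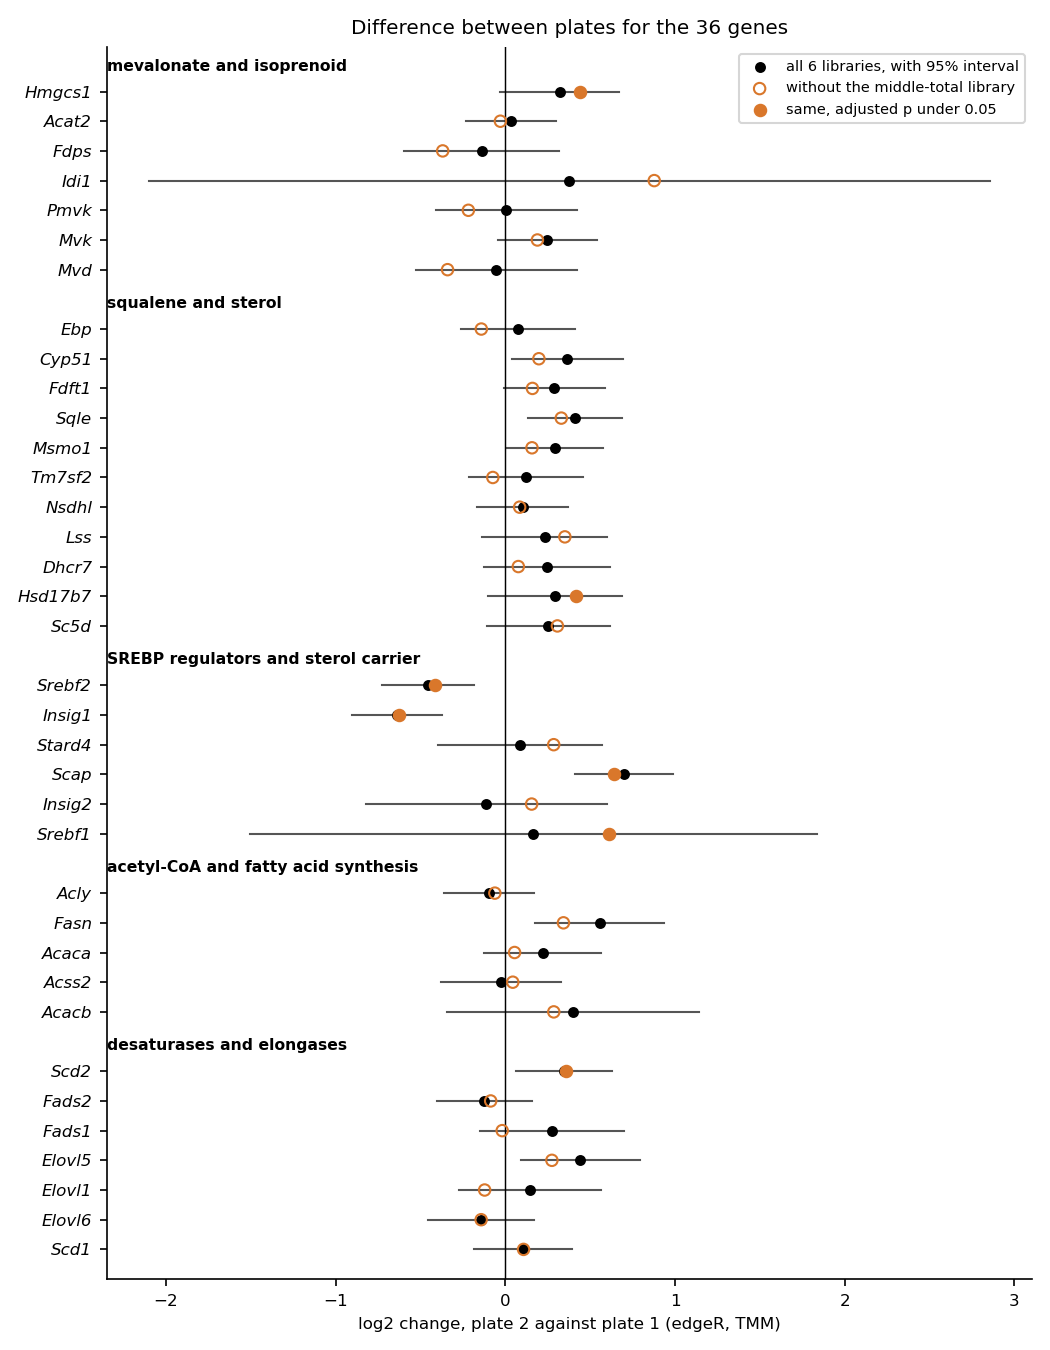
Log2 change of each member between plates (plate 2 against plate 1, edgeR with TMM scaling), as black points with 95% intervals for all 6 libraries and as circles for the fit without the middle-total library, filled where the adjusted p is under 0.05. Scap lies at 0.70 and Insig1 at -0.64 with intervals clear of 0, and the intervals of Idi1 and Srebf1 are the widest.

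The middle-total library was then compared with the other plate 2 libraries. On TMM-scaled CPM + 1 it lay more than 2-fold below their mean for 3 of 36 members, Idi1 at -3.50, Srebf1 at -2.43 and Insig2 at -1.12 log2 units, which is 8.33% of members against 5.53% of tested genes. Stard4 followed at -0.82. On the high side were Fads1 at 0.67, Mvd at 0.65 and Elovl1 at 0.62. No other library was more than 2-fold below its plate partners for any member, and 1 member, Idi1, was more than 2-fold above them, in the highest-total library at 1.60. That mean holds the low value of the middle-total library, and against the lowest-total library alone Idi1 was 1.70-fold higher. Of all genes tested 1.18% lay that far above in that library, and 0.128 to 0.453% lay more than 2-fold below in the libraries other than the middle-total one.

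GC content of the last 200 bases of the transcript moved with these values. Idi1 had the lowest of the members, 22.5%, and Insig2 25.5%, while Mvd had the highest, 56%. Srebf1 at 42.5% was near the members' median of 39.5% and stood at -2.43 all the same. Over the 36 members the rank correlation of GC content with the ratio of the middle-total library was 0.57, and over 12885 tested coding genes 0.53, given as a description across genes that share 1 library. For the highest-total library, whose reference mean holds the middle-total one, they were -0.66 and -0.47. For replicate 2 of plate 1 they were 0.51 and 0.19. In the remaining libraries the members gave -0.21 to -0.14 and the tested coding genes -0.32 to -0.10. The -0.32 was that of the lowest-total library of plate 2, whose reference mean also holds the middle-total one. Tested genes with 20 to 25% GC had a median ratio of -0.60 in the middle-total library. The part of GC content in the levels of single members was not tested.

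**Figure D5:**
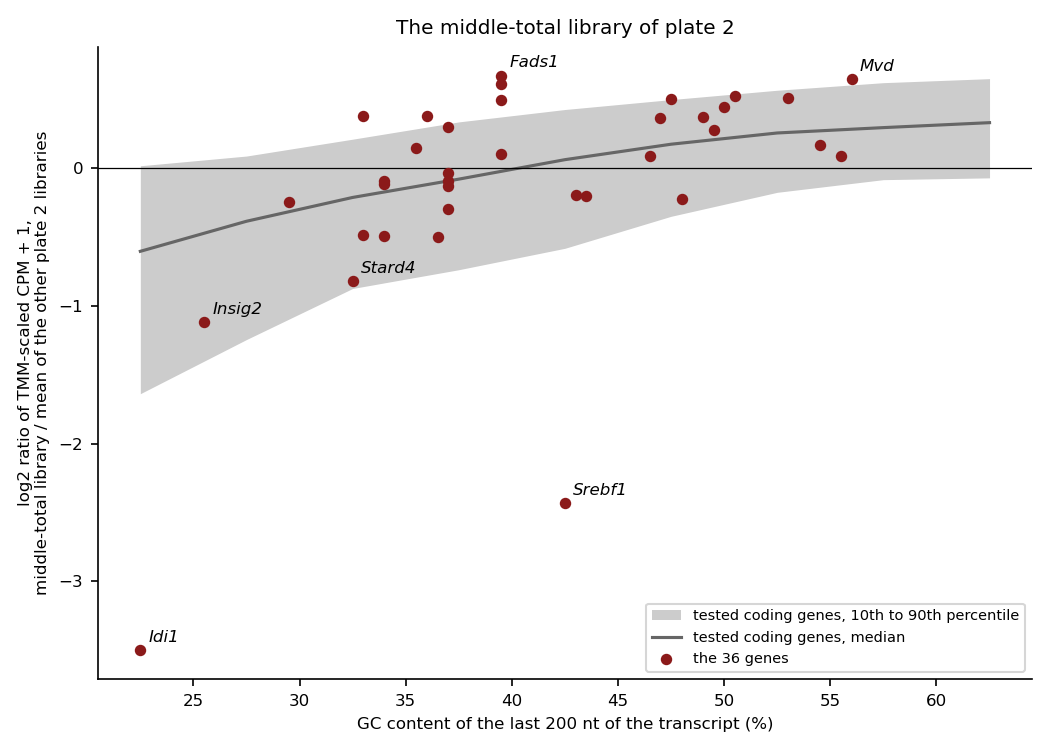
Log2 ratio of TMM-scaled CPM + 1 in the middle-total library of plate 2 to the mean of the other plate 2 libraries, against the GC content of the last 200 bases of the transcript (%). Red points are the 36 genes and the grey line and band give the median and the 10th to 90th percentile of tested coding genes, which rise with GC content, and Idi1 and Srebf1 lie below the band.

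A second list of 42 genes of the same pathways, from sterol esterification and export to acyl-CoA synthetases and glyceride synthesis, was read in the same way. Of these, 40 could be tested and none passed in edgeR over all 6 libraries, with 6 (15.0%) at an unadjusted p under 0.05, against 16.1% of all genes tested. The highest was Mid1ip1, which helps acetyl-CoA carboxylase to polymerise, at 182, 181 and 172.4 CPM on plate 1 and 300.2, 267 and 271 CPM on plate 2. Npc2, which carries cholesterol out of lysosomes, stood at 154, 133 and 154 CPM on plate 1 and 185, 266 and 158 CPM on plate 2. Erg28, a scaffold of sterol enzymes, stood at 163, 153 and 144 CPM on plate 1 and 177, 189 and 199.96 CPM on plate 2. At the other end, the elongases Elovl3 and Elovl2 and the desaturase Scd4 were at or near 0. Elovl3 stood at 0.792, 2.08 and 1.17 CPM on plate 1 and 1.18, 0.615 and 0.740 CPM on plate 2. Scd4 had no read in replicates 1 and 2 of plate 1, 0.327 CPM in replicate 3 and 0.178, 0.194 and 0.384 CPM on plate 2. Elovl2 had no read in any library, where 3 reads would be 0.140 CPM or less.

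Without the middle-total library 5 of the 40 tested were called (12.5%), close to the 12.0% of all genes tested in that fit, with Abca1, Mid1ip1, Acsl4 and Dgat1 higher and Hacd1 lower on plate 2. DESeq2 over all libraries called Abca1 and Dgat1 (5.00%, against 3.73%). Abca1, the sterol exporter driven by liver X receptors, stood at 22.8, 19.9 and 26.6 CPM on plate 1 and 42.0, 40.6 and 48.6 CPM on plate 2, without overlap between plates. Its log2 change was 0.66 (SE 0.14, adjusted p = 0.102), and 0.67 (adjusted p = 0.00385) without the middle-total library. The log2 change of Dgat1, which makes triglyceride, was 0.68 (SE 0.17, adjusted p = 0.119), and 0.55 (adjusted p = 0.0217) without that library. Osbp and Hacd2, named like the other genes of this paragraph after their values were seen, were more than 2-fold low in the middle-total library, Hacd2 at 39.3, 33.8 and 42.5 CPM on plate 1 and 48.0, 3.91 and 73.6 CPM on plate 2.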

How the data were processed

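RNA of 6 GLUTag libraries was sequenced from the 3′ end. The authors trimmed reads with Trim Galore 0.6.4 and assigned them to GRCm38 transcripts (GENCODE M23, per the study's methods) with Salmon 1.5.1, and the deposited matrix holds estimated counts per gene, of which 7.08 to 8.89% in a library were not exactly whole. The strand setting was not given in the sources used here. CPM were computed over column totals, and a pseudocount of 1 CPM was added before log2. Counts were rounded and the plates compared in R 4.3.3 with edgeR 4.0.16 (TMM scaling, filterByExpr, glmQLFit with robust estimation, glmQLFTest, no covariate), with p-values adjusted over all 15669 genes tested. An SE is the absolute log2 change divided by the square root of F. On simulated plates with 200 genes changed 4-fold, edgeR recovered 100% at a false share of 4.89% over 15669 genes in 3 draws. The false share was 6.10% for DESeq2 and 5.51% for limma-voom. All genes were simulated with the same dispersion and with no deviating library. The simulation therefore cannot show how well smaller changes would be found in the real libraries. DESeq2 1.42.0, limma-voom (limma 3.58.1), no filter, a minimum of 1 CPM in every library, total-count scaling, unrounded counts and leaving out each library were alternatives.

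The members, the role groups, the marker lists and the second pathway list were chosen with earlier results of these data known. The naming rule gave values in each library to the genes of the 9 pairs, to the highest and lowest member of each role group and to genes past the threshold, and of the second list to the highest 3 and lowest 3; other genes were named after their values were seen. Names, positions and 3′ ends came from GENCODE M21 (GRCm38), in which 54107 of 54281 identifiers were found, and near copies of the last 300 bases were sought with BLAST 2.17.0 (at least 100 bases at 90% identity). Libraries of a plate differed by more than sampling noise, at 10.9 to 139.9 chi-square units for each gene, and each counted as 1 sample. Totals ran from 21399987 to 36488198, and counting floors cover counting error only. Public datasets of other cells named by the study were not used here.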

Additional observations from a re-analysis of the deposited data

Results flagged for a closer look

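Over the 6 libraries, 3 of the 36 members had 1 library far from the rest by Dixon's test at 95%, which chance gives for about 1 group in 20. That is 8.33% of members, where 6.44% of the 15669 genes tested had such a library, and 3.27% of them had it as the highest value in the middle-total library of plate 2. In each case it was the middle-total library of plate 2, and the library was the highest. Ebp read 173 CPM there, with a gap ratio of 0.730, against 109 to 126 CPM elsewhere. Fads1 read 155 CPM, with a gap ratio of 0.682, against 77.6 to 102 CPM. Elovl1 read 69.2 CPM, with a gap ratio of 0.665, against 38.0 to 48.5 CPM. The GC content of the last 200 bases was 47.5% for Ebp and 39.5% for Fads1 and Elovl1, and its part in these values was not tested.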

How the results depend on the processing

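The number of genes that differed between plates was 584 with DESeq2, 10 with limma-voom, 545 with no filter and 1482 with total-count scaling, against 29, 23 and 29 with edgeR as reported, with at least 1 CPM required and with unrounded counts. Leaving out 1 library gave 0 to 1911, with 0 without plate 1 replicate 1 (1611 at an unadjusted p under 0.05) or the lowest-total library of plate 2 (2121), and 1911 without its middle-total library. Members called were 3 with DESeq2, 3 with no filter, 9 with total-count scaling and 0 to 7 with 1 library left out, the 7 without the middle-total library. The log2 change between plates turned positive with total-count scaling for Acly 0.18, Acss2 0.24, Elovl6 0.12, Fads2 0.15, Fdps 0.13, Insig2 0.16, Mvd 0.21. It turned negative with limma-voom for Idi1 -0.29, Pmvk -0.025, Srebf1 -0.21 and with DESeq2 for Pmvk -0.015. With 1 library left out it changed sign for 13 members and ran from -0.047 to 0.084 for Acat2, -0.16 to 0.044 for Acss2, -0.14 to 0.16 for Ebp, -0.12 to 0.28 for Elovl1, -0.018 to 0.40 for Fads1, -0.37 to 0.074 for Fdps, -0.38 to 0.88 for Idi1, -0.39 to 0.16 for Insig2, -0.34 to 0.15 for Mvd, -0.22 to 0.17 for Pmvk, -0.23 to 0.61 for Srebf1, -0.062 to 0.29 for Stard4, -0.073 to 0.20 for Tm7sf2. None of these reversed values passed the test. Total-count scaling itself moved the median of all genes tested from 0.031 to 0.30, and for the other settings the cause was not tested. Levels moved by less than 1 SD, and the signs of the 9 pair differences within a library held, but for levels with libraries left out and for these signs the arithmetic allows nothing else. The sizes of the pair differences moved with the pseudocount, most for Acaca against Acacb, from 1.79 at 5 CPM to 3.21 at 0.1 CPM. No paired analysis was made, because the plates were of different passages and the labels pair no library of plate 1 with a library of plate 2. The sample labels number replicates on from plate 1 to plate 2, and the column numbers, which restart on plate 2, could not be tied to them. Depth limits Acacb and the least abundant genes of the second list. The plate comparison rests on 3 libraries a plate, and the part of that number in the calls was not tested.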
